A study of Mus musculus with 9 samples.

Results

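The genes described here carry out glycogen synthesis and breakdown in cultured mouse cortical astrocytes exposed to noradrenaline. They are the 9 genes Gys1, Gbe1, Pygb, Pygm, Pygl, Ppp1r3c, Ppp1r3b, Ppp1r3d and Stbd1, taken by symbol from a table of 22100 genes, and all 9 had a row and enough counts to be tested among 13090 genes. 9 RNA-seq libraries were compared, 3 in each of 3 groups. 3 libraries were made at 90 min, directly after 50 µM noradrenaline had been on the cells for that time. 3 were made 3 days after the same application, the cells having been moved to medium free of noradrenaline after 90 min. 3 were unstimulated controls, which carry the 3 day time in their titles, so at 90 min treatment and time in culture cannot be told apart. The labels do not say whether medium was also replaced on the controls. All cells grew in high-glucose medium with serum, were passaged before confluence, and are called by the labels cultured cortical astrocytes; they give no strain, age or number of animals.

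Glycogen is a branched polymer of glucose, and in the brain it is stored mainly in astrocytes. Glycogen synthase lengthens the chains, the branching enzyme adds branch points, and glycogen phosphorylase releases glucose units as glucose 1-phosphate. The balance is set by phosphorylation, which activates phosphorylase and inhibits synthase, and by protein phosphatase 1 (PP1), which does the opposite when targeting subunits bring it to the glycogen particle. Noradrenaline is known to cause rapid glycogen breakdown in astrocytes through this phosphorylation, which mRNA levels do not report. The targeting subunit gene Ppp1r3c, whose product is called PTG, has been described in other work as a noradrenaline-induced gene of cultured mouse cortical astrocytes.

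At 90 min 1 of the 9 genes rose and 2 fell. The brain phosphorylase gene Pygb rose 1.24-fold, while the PP1 targeting subunit genes Ppp1r3c and Ppp1r3b fell to 0.725 and 0.542 of control. Over all tested genes 17.5% were called higher and 15.5% lower in this comparison, so these counts do not set the group apart. The synthase gene Gys1 and the branching enzyme gene Gbe1 were not called. At 3 days 0 of the 9 genes were called against control, where 0.0382% of all tested genes were called higher and 0.0764% lower. Pygb, Ppp1r3c and Ppp1r3b differed between 3 days and 90 min, where 18.7% of all tested genes were called higher and 20.4% lower.

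The promoters of Pygb and Ppp1r3c are shown because these genes are the most abundant of the called members and moved in opposite directions at 90 min. Each sequence runs from 250 bases before to 50 bases after the annotated start, in the direction of the gene, from RefSeq on the GRCm38.p6 build, whereas the counts were made on mm39. The Pygb window is chr2:150786546-150786845 on the plus strand, and the Ppp1r3c window is chr19:36736555-36736854 on the minus strand. Capitals mark TGACG, the core of the cyclic AMP response element, in Pygb and CACGTG, the E-box, in Ppp1r3c.
Pygb: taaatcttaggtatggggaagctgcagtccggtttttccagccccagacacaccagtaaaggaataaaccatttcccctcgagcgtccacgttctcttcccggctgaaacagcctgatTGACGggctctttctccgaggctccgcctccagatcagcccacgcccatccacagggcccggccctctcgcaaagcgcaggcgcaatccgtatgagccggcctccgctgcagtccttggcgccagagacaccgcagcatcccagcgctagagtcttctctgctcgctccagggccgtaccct
Ppp1r3c: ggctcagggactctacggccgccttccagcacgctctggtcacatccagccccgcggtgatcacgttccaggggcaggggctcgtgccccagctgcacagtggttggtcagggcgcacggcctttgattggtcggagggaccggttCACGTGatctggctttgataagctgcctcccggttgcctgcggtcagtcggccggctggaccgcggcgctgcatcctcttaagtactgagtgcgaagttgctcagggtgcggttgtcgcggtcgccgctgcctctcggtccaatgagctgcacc

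4 motifs were searched on both strands: the full cyclic AMP response element TGACGTCA, its core TGACG as named above, the AP-1 element TGACTCA and the E-box CACGTG. The table held windows for 8 of the 9 genes, the exception being Ppp1r3b. TGACG was found in 3 of the 8 windows, in Pygb at 132 bases before the start, in Pygl at 44 bases before and in Ppp1r3d at 222 and 68 bases before. Of 32851 windows of the same length 20.8% held it. CACGTG was found in 2 of 8, in Ppp1r3c at 104 bases before the start and in Ppp1r3d at 226 bases before, where it overlaps a TGACG match, against 7.15% of all windows. TGACGTCA and TGACTCA were found in 0 of the 8 windows, against 1.79% and 5.2% of all windows. A match describes the letters only.

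The cultures carried astrocyte mRNAs together with markers of fibroblast and meningeal cells. All 12 astrocyte markers were detected, with the transcription factor gene Sox9 at 248 ± 6.59 CPM (counts scaled to a common library size) and Slc1a3 at 131 ± 1.42 CPM in controls, but Gfap at 1.13 ± 0.293 CPM (SD, n = 3). The 9 fibroblast and meningeal markers summed to 2344 to 2856 CPM at 90 min, 2372 to 2594 CPM at 3 days and 2834 to 3113 CPM in controls. Of these 9, edgeR called 1 lower at 90 min (Pdgfrb), against 15.5% of all tested genes. At 3 days it called 3 lower (Ogn, Fmod and Mgp), against 0.0764% of all tested genes. Of the 8 pericyte and smooth muscle markers 4 were tested. At 3 days 1 of these was called lower (Acta2, log2 −0.30, edgeR adjusted p = 0.0373), against 0.0764% of all tested genes. At 90 min 1 was called higher (Cnn1, log2 2.19, edgeR adjusted p = 2.5e-10) and 0 lower, against 17.5% and 15.5% of all tested genes. Cnn1 was not called at 3 days (log2 0.04, edgeR adjusted p = 0.968). Of the 8 microglia markers P2ry12 and C1qa had no count in any library, while Tmem119 was at 7.28 ± 0.504 CPM in controls. Of the 8 oligodendrocyte lineage markers Olig1 and Olig2 had no count in any library, and Pdgfra was at 7.08 ± 0.254 CPM in controls. Of the 4 that were tested, 1 was called higher and 1 lower at 90 min, against 17.5% and 15.5% of all tested genes. The myelin gene Mbp rose to 28.0 ± 0.204 CPM, against 16.0 ± 1.03 CPM in controls (log2 0.80, SE 0.08, edgeR adjusted p = 1.1e-07). Cspg4 fell to 2.95 ± 0.336 CPM, against 4.28 ± 0.377 CPM in controls (log2 −0.53, SE 0.16, edgeR adjusted p = 0.0152). Of the 12 astrocyte markers 2 were called higher and 7 lower at 90 min by edgeR, against 17.5% and 15.5% of all tested genes, and their sum was 772 to 807 CPM at 90 min, 811 to 816 CPM at 3 days and 817 to 852 CPM in controls; the part of these marker shifts in the results below was not tested. Totals ranged from 15529158 to 18729980 counts per library, and 3 counts, the number that a count of 0 allows, were 0.160 to 0.193 CPM.

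Scaled by transcript length, the phosphorylase gene Pygb stood far above the other members in every library. In controls the length-scaled level, in CPM per kilobase, was 145 ± 1.49 for Pygb, 17.3 ± 0.882 for Ppp1r3c, 10.1 ± 0.179 for Gys1, 5.73 ± 0.516 for Gbe1 and 5.47 ± 0.537 for Stbd1 (SD, n = 3). Pygl followed at 4.57 ± 0.350, Ppp1r3b at 1.71 ± 0.282, Ppp1r3d at 1.5 ± 0.0854 and Pygm at 0.397 ± 0.114. The control ranges of Gbe1 and Stbd1 overlapped, as did those of Ppp1r3b and Ppp1r3d, so the order within these pairs is not resolved, while the lowest control of Stbd1 (4.92) lay just above the highest of Pygl (4.91). Lengths were those of the RefSeq-matched GENCODE M21 transcripts, so the scale is approximate.

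**Figure D1:**
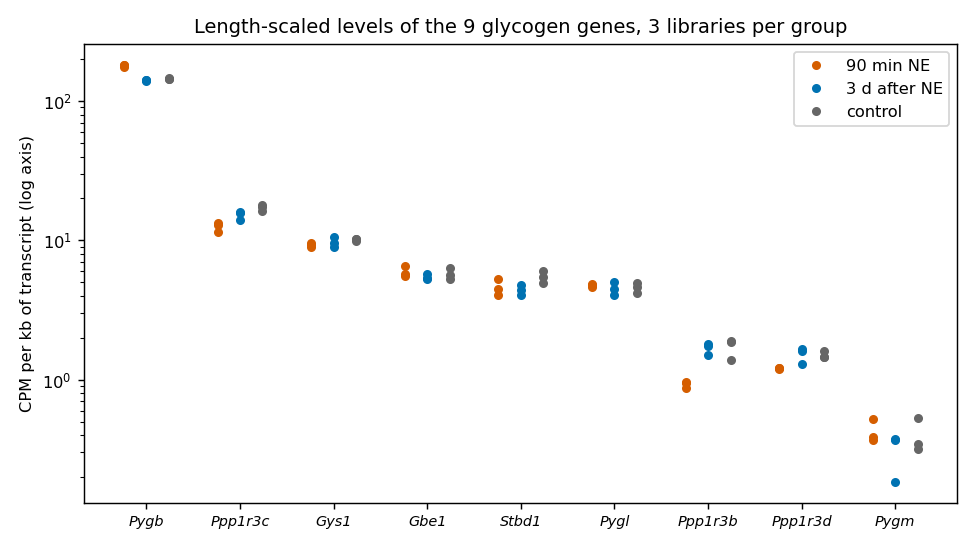
Level of each glycogen gene in CPM per kilobase of transcript (log axis) in each of the 3 libraries at 90 min, at 3 days and in controls, ordered by the control mean. Pygb lies near 145 in controls, more than any other member, and Pygm lies below 1 in all 9 libraries.

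Phosphorylases break glycogen down, and the brain isoform Pygb made up nearly all of their mRNA. Pygb (Entrez 110078) was at 712, 711 and 685 CPM at 90 min, at 548, 559 and 557 CPM at 3 days, and at 572, 561 and 564 CPM in controls. All 3 libraries at 90 min lay above all 6 others. The mean was 703 ± 15.7 CPM at 90 min and 566 ± 5.82 CPM in controls (SD, n = 3), or 0.31 on the log2 scale (SE 0.04, 95% interval of the fold 1.18 to 1.31, adjusted p by edgeR = 1.45e-06). The call held in 15 of 15 alternative settings, left-out libraries included, with log2 values of 0.30 to 0.33 and edgeR or DESeq2 adjusted p up to 3.44e-05.

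The liver isoform Pygl (Entrez 110095) and the muscle isoform Pygm (Entrez 19309) were not called at 90 min. Pygl had 13.5 ± 0.307 CPM at 90 min and 12.9 ± 0.988 CPM in controls (log2 0.06, SE 0.10, 95% interval of the fold 0.904 to 1.20, edgeR adjusted p = 0.707). Pygm was at 19, 20 and 25 counts at 90 min, 20, 19 and 10 counts at 3 days, and 17, 24 and 16 counts in controls. With so few counts its fold at 90 min had a 95% interval of 0.673 to 1.72 (edgeR adjusted p = 0.834), and the direction turned without control 1 (log2 −0.035) or 90 min library 3 (log2 −0.058). The 9 skeletal muscle markers summed to at most 1.13 CPM in any library, and the 7 hepatocyte markers to at most 0.240 CPM. Of the length-scaled phosphorylase mRNA Pygb made up 97.2% ± 0.0505 at 90 min, 96.7% ± 0.365 at 3 days and 96.7% ± 0.126 in controls. Pygl made up 2.58% ± 0.00853, 3.09% ± 0.351 and 3.06% ± 0.200 in the same groups, and Pygm under 1% in each library. The isoforms are related in sequence and Salmon shares reads between similar transcripts, so the small values of Pygm are the least certain.

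The 2 enzymes that build the polymer did not pass the test at 90 min. Gys1 (Entrez 14936), the glycogen synthase of muscle and brain, was at 35.0, 34.0 and 33.2 CPM at 90 min, at 35.1, 33.0 and 38.8 CPM at 3 days, and at 37.6, 36.3 and 37.3 CPM in controls. Its 90 min libraries all lay below the controls, by a small margin (log2 −0.12, SE 0.07, 95% interval of the fold 0.835 to 1.01, edgeR adjusted p = 0.168). Gbe1 (Entrez 74185), the branching enzyme, was at 17.8 ± 1.66 CPM at 90 min and 17.1 ± 1.54 CPM in controls, with overlapping ranges (log2 0.05, SE 0.09, 95% interval of the fold 0.910 to 1.18, edgeR adjusted p = 0.709). Gys2, the liver synthase gene on the wider list, had 1 count in 1 library at 3 days and 0 in the other 8.

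Of the 3 PP1 targeting subunit genes among the 9, whose products favour glycogen storage, 2 were called lower at 90 min, 0 higher, and Ppp1r3d was not called, where 15.5% of all tested genes were called lower. Ppp1r3c (Entrez 53412) was at 36.1, 35.0 and 31.1 CPM at 90 min, at 38.4, 43.7 and 42.6 CPM at 3 days, and at 44.5, 49.3 and 47.4 CPM in controls. The groups did not overlap, with 90 min lowest, 3 days between and controls highest. Its mean was 34.1 ± 2.61 CPM at 90 min and 47.1 ± 2.40 CPM in controls (SD, n = 3), or −0.46 on the log2 scale (SE 0.07, 95% interval of the fold 0.656 to 0.802, adjusted p by edgeR = 3.35e-05). In bulk RNA, fewer cells of a type and less RNA per cell cannot be told apart.

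Ppp1r3b (Entrez 244416), which codes for the subunit GL that is best known from liver, was at 4.14, 4.17 and 3.79 CPM at 90 min, at 7.89, 6.52 and 7.63 CPM at 3 days, and at 8.05, 6.02 and 8.22 CPM in controls. The 90 min libraries lay below all 6 others, which overlapped each other. The mean was 4.03 ± 0.212 CPM at 90 min and 7.43 ± 1.23 CPM in controls (log2 −0.88, SE 0.14, 95% interval of the fold 0.439 to 0.669, edgeR adjusted p = 9.55e-05), the largest fold change of the 9 genes at 90 min. Both calls held in 15 of 15 alternatives, with log2 values of −0.51 to −0.40 for Ppp1r3c and −1.01 to −0.81 for Ppp1r3b and adjusted p up to 0.000445 and 0.00119.

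The third subunit gene, Ppp1r3d (Entrez 228966), was at 3.92, 3.95 and 3.97 CPM at 90 min, at 4.21, 5.45 and 5.24 CPM at 3 days, and at 5.24, 4.75 and 4.76 CPM in controls. Its 90 min libraries lay below all others but the test was not passed (log2 −0.32, SE 0.14, 95% interval of the fold 0.649 to 0.988, edgeR adjusted p = 0.100). Stbd1 (Entrez 52331), which codes for a protein that binds glycogen and anchors it to membranes, was at 8.06, 8.95 and 10.5 CPM at 90 min, at 8.73, 8.0 and 9.53 CPM at 3 days, and at 9.77, 11.9 and 10.9 CPM in controls. Its ranges at 90 min and in controls overlapped (log2 −0.24, SE 0.12, edgeR adjusted p = 0.125), and without 90 min library 3 it was called lower (log2 −0.35, adjusted p = 0.0326). Counting ranges alone, 1 of the 9 genes lay wholly above and 4 wholly below the controls at 90 min, against 22.3% and 21.2% of all tested genes.

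**Figure D2:**
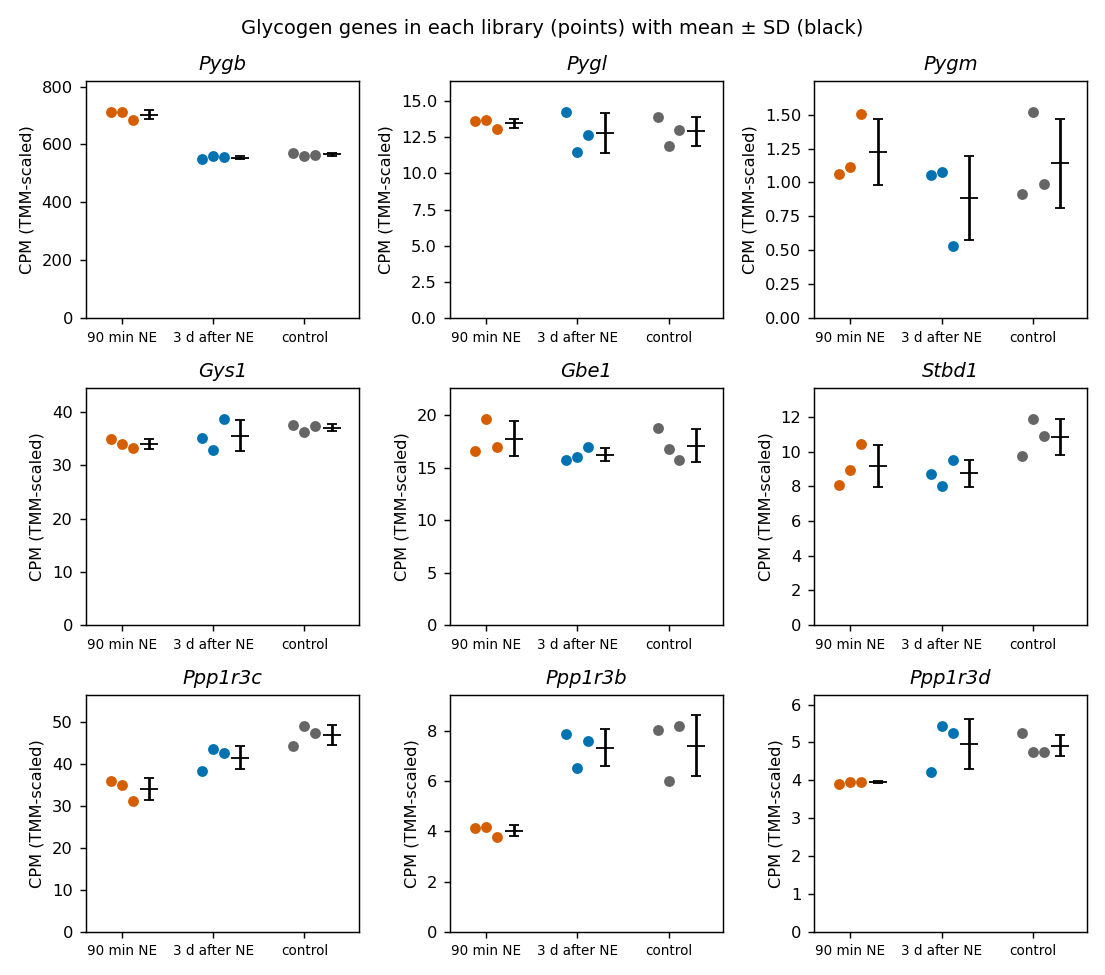
TMM-scaled CPM of each glycogen gene in every library (points) at 90 min, at 3 days and in controls, with the mean and SD of 3 libraries beside them; axes start at 0. Pygb is high at 90 min (685 to 712 CPM), and Ppp1r3c, Ppp1r3b and Ppp1r3d have their 3 lowest libraries there.

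Ratios of counts within a library do not depend on how libraries are scaled. The ratio of Pygb to Gys1 counts was 20.3, 20.9 and 20.6 at 90 min, 15.6, 17.0 and 14.4 at 3 days, and 15.2, 15.4 and 15.1 in controls. The 90 min ratios lay above all others, while the 3 day ratios spread around those of the controls. The ratio of Pygb to Ppp1r3c was 20.7 ± 1.17 at 90 min, 13.4 ± 0.790 at 3 days and 12 ± 0.748 in controls (SD, n = 3). The ratio of Ppp1r3b to Ppp1r3d was 1.02 ± 0.0590, 1.51 ± 0.342 and 1.51 ± 0.231 in the same groups. That of Ppp1r3c to Ppp1r3b was 8.73, 8.39 and 8.22 at 90 min and 5.53, 8.19 and 5.77 in controls, so 1 control came close to the 90 min libraries. The ratio of Gbe1 to Gys1 was 0.522 ± 0.0526 at 90 min, 0.458 ± 0.0246 at 3 days and 0.461 ± 0.0389 in controls, with overlapping ranges. These ratios are given as descriptions, with no test.

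**Figure D3:**
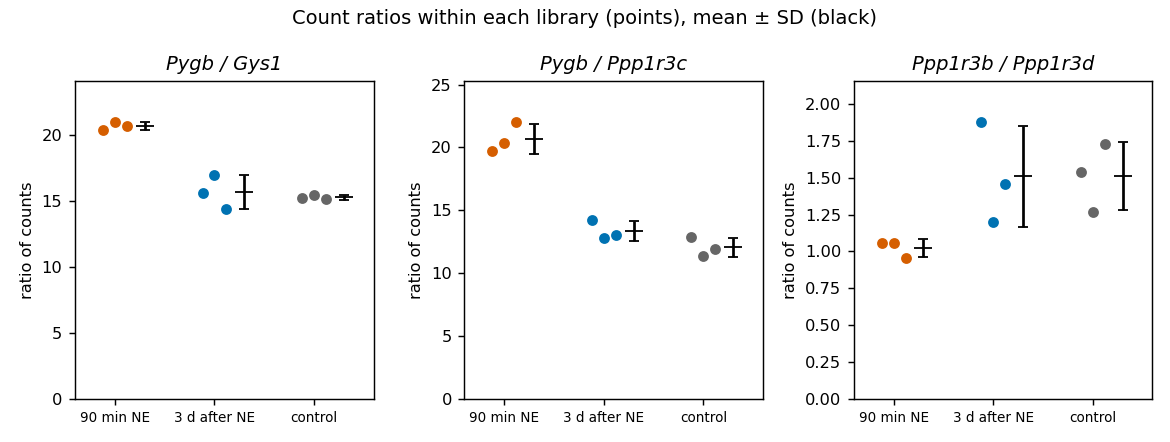
Ratio of the counts of Pygb to Gys1, Pygb to Ppp1r3c and Ppp1r3b to Ppp1r3d in every library (points) at 90 min, at 3 days and in controls, with mean and SD (black) over 3 libraries. The Pygb to Gys1 ratio is 20.3 to 20.9 at 90 min and 15.1 to 15.4 in controls.

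At 3 days after the exposure 0 of the 9 genes were called against control by edgeR, and 2 had an unadjusted p below 0.05. DESeq2 also called 0, but gave no adjusted p for Gbe1, Pygl, Pygm, Ppp1r3b, Ppp1r3d and Stbd1, so it could not call them. Over all genes edgeR called 0.0382% higher and 0.0764% lower, and 1221 of the 13090 tested genes had an unadjusted p below 0.05. Ppp1r3c was at 41.6 ± 2.79 CPM at 3 days and 47.1 ± 2.40 CPM in controls (log2 −0.18, SE 0.07, 95% interval of the fold 0.802 to 0.975, edgeR adjusted p = 0.404). Stbd1 was at 8.75 ± 0.768 CPM at 3 days and 10.9 ± 1.07 CPM in controls (log2 −0.31, SE 0.12, 95% interval of the fold 0.682 to 0.960, edgeR adjusted p = 0.415). These are the 2 genes with an unadjusted p below 0.05, and in both all 3 libraries at 3 days lay below all 3 controls. Pygb had the same order by a narrow margin, at 548 to 559 CPM at 3 days and 561 to 572 CPM in controls, and its interval was narrow (fold 0.981, 95% interval 0.931 to 1.03), for Gys1 it was 0.874 to 1.06, and for Ppp1r3b it was 0.815 to 1.20. Pygl, Gbe1 and Ppp1r3d had intervals of 0.861 to 1.14, 0.832 to 1.08 and 0.823 to 1.23, and Pygm one of 0.477 to 1.28. The share of all tested genes whose 3 day libraries all lay below the controls was not computed, so the separated ranges have no background here.

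Between 3 days and 90 min, Ppp1r3c and Ppp1r3b were higher at 3 days and Pygb was lower, where 18.7% of all genes were called higher and 20.4% lower. Pygb fell by 0.34 on the log2 scale (SE 0.04, edgeR adjusted p = 4.56e-07), with 555 ± 5.56 CPM at 3 days against 703 ± 15.7 CPM at 90 min. Ppp1r3b was 1.82-fold higher (log2 0.86, SE 0.14, 95% interval of the fold 1.48 to 2.24, edgeR adjusted p = 0.000101), and Ppp1r3c 1.22-fold (log2 0.29, SE 0.07, edgeR adjusted p = 0.00299). All 3 calls held in 15 of 15 alternatives. Ppp1r3d was not called (log2 0.33, SE 0.14, edgeR adjusted p = 0.0754), and was called without 3 day library 1 (log2 0.43, adjusted p = 0.0324). Gys1, Gbe1, Pygl, Pygm and Stbd1 were not called, with edgeR adjusted p of 0.461, 0.275, 0.596, 0.289 and 0.723. This comparison shares the 90 min libraries with the first and the 3 day libraries with the second, and also spans the change of medium.

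**Figure D4:**
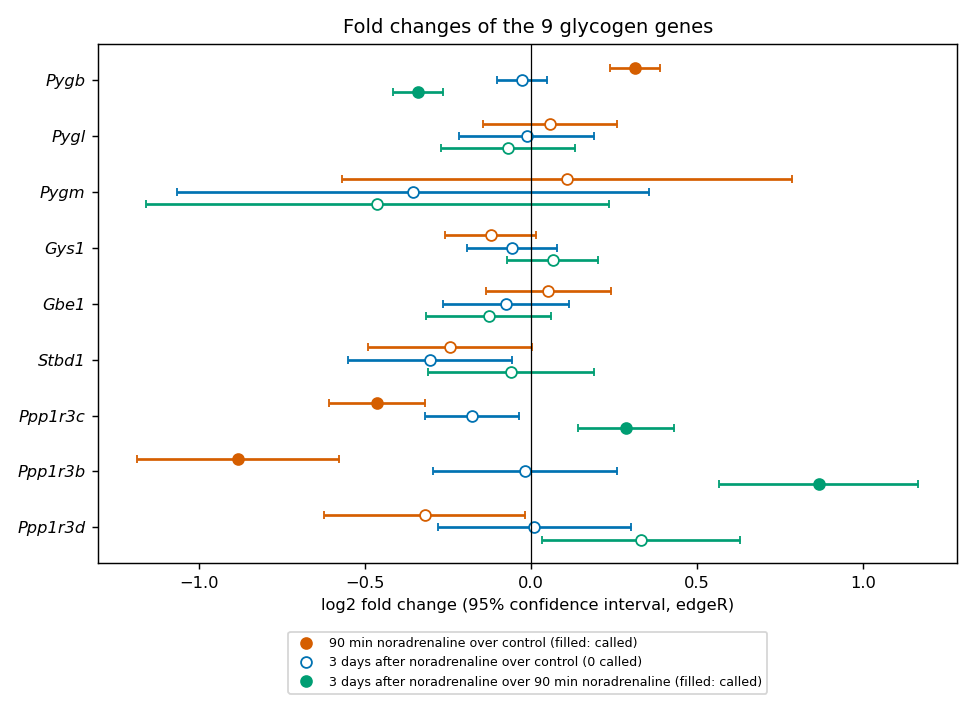
Log2 fold changes of the 9 glycogen genes with 95% confidence intervals for 90 min over control, 3 days over control and 3 days over 90 min; filled points passed an adjusted p of 0.05 (edgeR). Pygb, Ppp1r3c and Ppp1r3b are filled at 90 min and, with the opposite sign, between the times, and none of the 9 is filled at 3 days over control.

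The rest of the glycogen pathway was followed in a list of 39 symbols, of which 38 were in the table and 34 were tested. At 90 min 8 of these rose and 6 fell, where 17.5% and 15.5% of all tested genes did so. Slc2a4, among the 8, passed the count filter only through the 90 min libraries. The median log2 fold change of the list was −0.0061, against a median of −0.00084 over all genes. In the list group for priming, UDP-glucose and synthase, Pgm2, a phosphoglucomutase family gene, rose at 90 min. It was at 70.6 ± 3.51 CPM, against 39.7 ± 0.840 CPM in controls (log2 0.83, SE 0.06, edgeR adjusted p = 1.46e-09). Gyg1, which codes for glycogenin, the protein primer of new glycogen, fell to 43.6 ± 2.76 CPM, against 52.9 ± 0.567 CPM in controls (log2 −0.28, SE 0.05, edgeR adjusted p = 0.000560). The other 3 tested members of that group, Pgm1, Pgm2l1 and the UDP-glucose pyrophosphorylase gene Ugp2, were not called.

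Gaa, the gene of the lysosomal alpha-glucosidase that breaks down glycogen, was not called at 90 min (log2 −0.02, edgeR adjusted p = 0.728). Of the 5 genes of phosphorylase kinase, the enzyme that activates phosphorylase, 0 were called by edgeR, against 17.5% called higher and 15.5% lower of all tested genes. In 1 of the 5, Phkg2, the unadjusted p was below 0.05 (log2 −0.18, edgeR adjusted p = 0.117), as in 5439 of the 13090 tested genes.

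Among the partners of the targeting subunits, Ppp1cb, a catalytic subunit gene of PP1, rose 1.30-fold to 389 ± 4.07 CPM at 90 min, against 300 ± 17.8 CPM in controls (edgeR adjusted p = 1.62e-06). Ppp1r2, which codes for PP1 inhibitor-2, rose 1.21-fold (edgeR adjusted p = 0.000158). The other catalytic genes Ppp1ca and Ppp1cc had log2 values of 0.05 and 0.04 and were not called. Ppp1r3f, a further targeting subunit gene, stood at log2 −0.09 (edgeR adjusted p = 0.389), and Ppp1r3a, Ppp1r3e and Ppp1r3g were too low to be tested.

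Of the 10 genes for kinases that act on synthase and for its quality control, 2 rose and 4 fell at 90 min, against 17.5% and 15.5% of all tested genes; of these 6 calls, those of Epm2a, Prkab2 and Prkag2 were lost with DESeq2. Gsk3b, which codes for a kinase that inhibits glycogen synthase, fell to 125 ± 11.3 CPM, against 155 ± 7.90 CPM in controls (log2 −0.31, SE 0.06, edgeR adjusted p = 0.000520). Epm2a, the gene of the glycogen phosphatase laforin, fell to 13.4 ± 0.425 CPM, against 16.1 ± 0.914 CPM in controls (edgeR adjusted p = 0.0222), a call lost without 90 min library 3 (0.0587) or control 3 (0.0906) and with DESeq2 (0.0837). The catalytic subunits of AMP-activated kinase moved in opposite directions. Prkaa2 fell to 3.66 ± 0.651 CPM, against 6.67 ± 0.684 CPM in controls (log2 −0.86, SE 0.15, edgeR adjusted p = 0.000244). Prkaa1, by far the more abundant, rose 1.18-fold to 108 ± 4.57 CPM, against 91.3 ± 4.70 CPM in controls (edgeR adjusted p = 0.00125). Prkab2, whose product carries a glycogen-binding domain, and Prkag2 passed narrowly, lower and higher, with edgeR adjusted p of 0.0479 and 0.0469. Prkab2 lost its call without any of the 90 min libraries, 3 day library 1 or control 1 or 2 (adjusted p 0.0504 to 0.212), and Prkag2 without 90 min library 1 or 2, any 3 day library, or control 1 or 2 (0.0501 to 0.225). Both calls were also lost with no filter (0.0511 for Prkab2 and 0.0668 for Prkag2), with DESeq2 (0.103 and 0.105) and in the 2-group fit (0.0507 and 0.0723).

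In glucose entry and phosphorylation, which feed both glycogen and glycolysis, 3 of 7 genes rose and 1 fell at 90 min, against 17.5% and 15.5% of all tested genes. The hexokinase gene Hk2 rose 6.60-fold (edgeR adjusted p = 1.28e-17) and the glucose transporter gene Slc2a1 rose 1.47-fold (edgeR adjusted p = 4.33e-08). The insulin-responsive transporter gene Slc2a4 was called at 13, 17 and 10 counts at 90 min against 1, 3 and 4 counts in controls (log2 2.21, SE 0.57, edgeR adjusted p = 0.00550). It passed the count filter only through the 90 min libraries, where it was high, so its call is not independent of that filter. Hk1 was slightly lower (log2 −0.14, SE 0.04, edgeR adjusted p = 0.0147), a call lost without control 3 (0.0591).

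**Figure D5:**
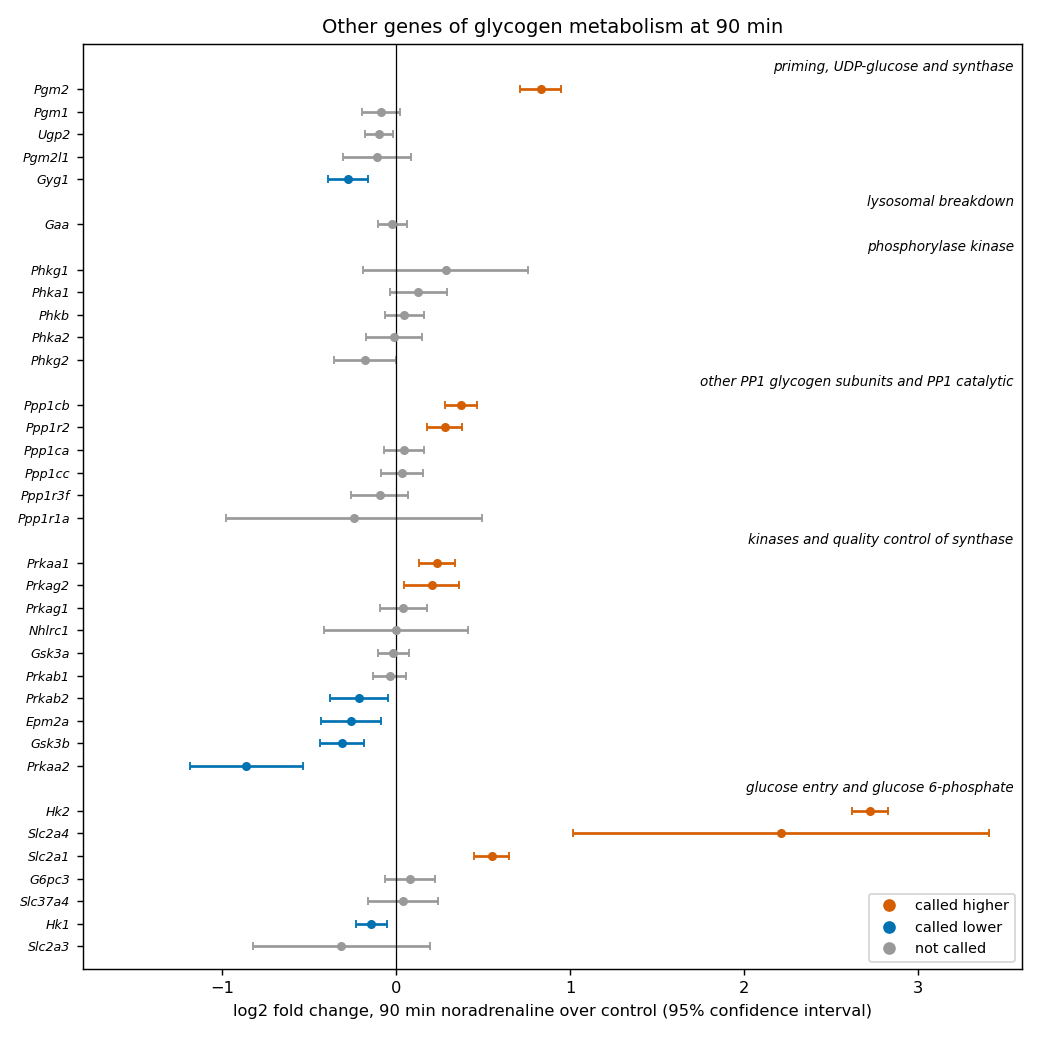
Log2 fold changes at 90 min over control, with 95% confidence intervals, of the 34 tested genes on the wider glycogen list, by role; orange points were called higher, blue lower and grey not called (edgeR adjusted p of 0.05). Hk2 lies farthest right at 2.72 and Prkaa2 farthest left at −0.86.

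At 3 days 0 of the 34 genes were called against control by edgeR. DESeq2 called 0 of those to which it gave an adjusted p. By edgeR 1 gene had an unadjusted p below 0.05. That gene was Gyg1, at 47.0 ± 0.998 CPM at 3 days and 52.9 ± 0.567 CPM in controls (log2 −0.17, edgeR adjusted p = 0.278). Over all tested genes edgeR called only 0.0382% higher and 0.0764% lower in this comparison, and 1221 of 13090 had an unadjusted p below 0.05. The counts for the 34 genes therefore do not set them apart. Between 3 days and 90 min 6 of the 34 were higher and 7 lower, close to the 18.7% and 20.4% of all tested genes. Prkaa2 (log2 0.91), Prkab2 (0.30), Gsk3b (0.23) and Hk1 (0.13), all called lower at 90 min, were higher at 3 days than at 90 min, and Hk2 (−2.61), Slc2a4 (−1.30), Pgm2 (−0.77), Slc2a1 (−0.64), Ppp1cb (−0.44), Ppp1r2 (−0.23) and Prkaa1 (−0.18) were lower. Phkg2 (0.27) and Ppp1r3f (0.21) were also higher at 3 days than at 90 min. The ranges of Gsk3b at these times overlapped. Gyg1 and Epm2a, called lower at 90 min, and Prkag2, called higher, were not called between the times (edgeR adjusted p = 0.132, 0.115 and 0.115). The call of Ppp1r3f was lost without any 90 min library, 3 day library 1 or 3, or control 1 (adjusted p 0.0524 to 0.176), and with no filter (0.0583), DESeq2 (0.118) or the 2-group fit (0.0538). The call of Slc2a4 was lost without 90 min library 1 or 2 or 3 day library 2 or 3 (0.0771 to 0.150). It was also lost with no filter (0.0526) or DESeq2 (0.133), and Slc2a4 passed the count filter only through the 90 min libraries. The call of Phkg2 was lost without 3 day library 1 (0.0784), and that of Hk1 without 3 day library 1 (0.120) or 3 (0.0581).

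By the root mean square difference of log2 CPM over the 9 libraries, each gene centred on its control mean, the genes closest to Pygb were Trak2 (0.021), Mgrn1 (0.025) and Sar1a (0.027), where the median over 11591 genes was 0.22. Closest to Ppp1r3c were Hsdl1 (0.054), Marcks (0.067) and Git1 (0.069), with a median of 0.32. Closest to Ppp1r3b were Dclk3 (0.074), Rcor2 (0.092) and Pard6b (0.10), with a median of 0.52. The libraries are shared between all genes, so these distances are descriptions and carry no test.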

How the data were processed

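The table deposited by the authors holds gene-level estimated counts, whole numbers with Entrez identifiers and symbols. The tools and build named are fastp 0.23.4, Salmon 1.8.0 and mm39, per the submitters' processing notes; the sources used here do not give the summing of transcripts to genes or the use of strand. 1 row without a symbol held at most 0.000668% of a library. Libraries were poly(A)-selected, per the labels' protocols. Groups and replicate numbers come from the titles, which do not say whether replicates were separate cultures, so p-values measure the spread between libraries.

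Counts (rounding changed none) were fitted with edgeR 4.0.16 under R 4.3.3: filterByExpr (minimum count 10, minimum total 15), TMM scaling, 1 fit over all 9 libraries and two-sided quasi-likelihood tests, with Benjamini-Hochberg adjustment over 13090 genes. Calls are genes whose adjusted p was under 0.05. CPM are TMM-scaled. SE is the log2 fold change divided by the square root of F, and 95% intervals use the fit's degrees of freedom. The fit was tested on simulated counts. Replicates of a group differed by more than sampling noise (chi-square per degree of freedom 2.40 to 7.13). Alternatives were RLE factors, no filter, a stricter filter (1 CPM in 3 libraries), DESeq2 1.42.0, 2-group fits, a replicate block and leaving out each library.

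1 gene was left out of the pathway list and is not reported here. The members and lists were chosen with earlier results of these data known. Named are all 9 members, the pathway genes called, and the 3 genes of nearest pattern for each member called at 90 min; other genes were named after their values were seen. Marker lists covered astrocytes, neurons, microglia, oligodendrocyte lineage, fibroblast and meningeal cells, pericytes and smooth muscle, skeletal muscle, hepatocytes and endothelium. Neuron markers summed to 139 to 157 CPM at 90 min, 131 to 145 CPM at 3 days and 138 to 139 CPM in controls, mostly Map2, microglia markers to at most 10.1 CPM, mostly Tmem119, and oligodendrocyte lineage markers to 39.2 to 40.1, 28.4 to 30.7 and 29.2 to 31.0 CPM in the same groups. Pericyte and smooth muscle markers summed to 335 to 379, 280 to 312 and 344 to 354 CPM, and endothelial markers to 43.8 to 45.9, 51.0 to 58.4 and 49.5 to 54.9 CPM.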

Additional observations from a re-analysis of the deposited data

Results flagged for a closer look

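16 of the genes described had an effect at 90 min that differed from the effect at 3 days by a direct test between the times (edgeR adjusted p below 0.05); both effects use the same controls. In that test 18.7% of all tested genes were called higher and 20.4% lower, so the number of such genes does not set these apart. For the 3 members the log2 difference of 3 days over 90 min was −0.34 for Pygb, 0.29 for Ppp1r3c and 0.86 for Ppp1r3b. On the wider list it was −2.61 for Hk2, −1.30 for Slc2a4, −0.77 for Pgm2, −0.64 for Slc2a1, −0.44 for Ppp1cb, −0.23 for Ppp1r2, −0.18 for Prkaa1, 0.13 for Hk1, 0.21 for Ppp1r3f, 0.23 for Gsk3b, 0.27 for Phkg2, 0.30 for Prkab2 and 0.91 for Prkaa2. Slc2a4 passed the count filter only through the 90 min libraries. Of the 3 members, Ppp1r3c (log2 −0.18, edgeR adjusted p = 0.404) and Pygb (log2 −0.03, edgeR adjusted p = 0.875) had 3 day libraries that all lay below the controls. Neither was called, and the share of all tested genes separated in this way at 3 days was not computed.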

How the results depend on the processing

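The counts of members called and the calls of Pygb, Ppp1r3c and Ppp1r3b at 90 min and between the times did not change under RLE factors, either filter, DESeq2, the 2-group fits or the replicate block. For the count at 3 days over control, DESeq2 gave no adjusted p for Gbe1, Pygl, Pygm, Ppp1r3b, Ppp1r3d and Stbd1. Over all genes at 3 days, 5 higher and 10 lower became 109 and 96 with no filter, 30 and 46 with DESeq2, 39 and 37 in the 2-group fit, and 1 and 2 with the replicate block, and leaving out libraries gave 0 to 45 and 0 to 38; the cause was not tested. Same-numbered libraries did not deviate together (r from −0.31 to 0.16), so the numbers are not taken to pair them. The replicate block also ended the calls of Prkab2 (adjusted p = 0.0697) and Prkag2 (0.0666) at 90 min and of Slc2a4 between the times (0.0699) by edgeR. Slc2a4 has no value under the stricter filter, which removed it. Pathway genes higher between the times were 3 to 6 with 1 library left out, the lowest without 3 day library 1. The log2 value of 7 members turned sign with 1 library left out, in comparisons where they were not called. At 90 min Gbe1 ranged from −0.028 to 0.13, negative without 90 min library 2 or control 3 (−0.0038), and Pygm from −0.058 to 0.36, negative without 90 min library 3 or control 1 (−0.035). At 3 days over control Pygl ranged from −0.100 to 0.054, positive without 3 day library 2 or control 1 (0.041), and Ppp1r3b from −0.14 to 0.057, positive without 3 day library 2, control 1 (0.044) or control 3 (0.057). Ppp1r3d ranged from −0.061 to 0.12, negative without 3 day library 2 or 3 (−0.033) or control 2 (−0.014) or 3 (−0.013). Between the times Gys1 ranged from −0.0028, without 3 day library 3, to 0.11, and Stbd1 from −0.15 to 0.043, positive without 90 min library 3. Depth limits Pygm most, at 10 to 25 counts per library.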

Other observations

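Ppp1r3g, a PP1 glycogen targeting subunit gene too low to be tested, had 3, 4 and 4 counts at 90 min, 1, 0 and 0 counts at 3 days, and 0 counts in each control; it was named after its values were seen. Ppp1r3e, another such gene, had 8, 3 and 11 counts at 90 min, 3, 6 and 9 counts at 3 days, and 3, 15 and 7 counts in controls. Nhlrc1, which codes for malin, the ubiquitin ligase partner of laforin, had a log2 value of −0.00 at 90 min (edgeR adjusted p = 0.999), whereas the laforin gene Epm2a was called lower.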
